A study of Mus musculus with 3 samples.

Results

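The 8 genes described here encode the signalling chain that runs beneath the receptor for thrombopoietin and its relatives: the Janus kinases Jak1, Jak2 and Tyk2, the transcription factors Stat3, Stat5a and Stat5b, and the adaptor Sh2b3 and ubiquitin ligase Cbl, which restrain the signal. They were chosen by name, as known parts of this pathway, and not by their measured levels, though earlier results of these data were known. All 8 symbols mapped to a mouse Entrez gene, and all 8 were among the 9822 genes of the deposited tables. The sequenced RNA came from freshly purified blood platelets of BALB/c males, 20 weeks old and of Nxf1 wild-type genotype. There were 3 libraries, replicates 1, 2 and 3, all of that group, and each was a batch of its own according to the labels. The labels do not say that the libraries came from separate mice, so the spread between them may be partly technical, and batch and replicate cannot be told apart. With 1 group there was no comparison between conditions. The results are therefore the level of each gene, its spread over the 3 libraries, and the order and ratios of the genes within each library.

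Thrombopoietin is the main hormone of platelet production. Its receptor has no enzyme activity of its own and carries JAK2, and also TYK2, on its intracellular part. When the hormone binds, the kinases phosphorylate the receptor and STAT3, STAT5A and STAT5B, which pair up and move to the nucleus, and in parallel the adaptors that lead to the kinases ERK1 and ERK2. SH2B3, also called LNK, binds JAK2 and dampens the signal, and CBL adds ubiquitin to activated receptors and kinases. JAK1 serves other cytokine receptors, among them those of the interleukin-6 and interferon families. Platelets have no nucleus: their RNA is inherited from the megakaryocyte, and in them the kinases and adaptors act without new transcription.

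Total counts were 26974129, 25189231 and 26111636 for replicates 1, 2 and 3. Levels are given as counts per 1000000 counts assigned to genes (CPM), and, wherever genes are compared with each other, as CPM per 1000 bases of the deposited gene length (RPKM). The exception is the share of all genes that a level stood above, which is by CPM unless said to be by RPKM. All 9 platelet markers, such as Pf4 and Itga2b, were detected, with summed levels of 35859, 37506 and 38352 CPM in replicates 1, 2 and 3. Red cell markers, mostly globin genes, summed to 48722 CPM in replicate 1 against 5219 and 6805 CPM in replicates 2 and 3. Markers of B cells (8 of 8 in the tables) summed to 228.3, 222.5 and 367.1 CPM, and of T cells (7 of 8) to 31.1, 31.998 and 48.3 CPM. All 8 and all 7 of those markers were highest in replicate 3, as were 7 of the 9 platelet markers and 6752 of all 9822 genes. Most of the B cell sum was Cd74 and H2-Aa, at means of 127.0 and 95.6 CPM. Markers of monocytes (5 of 7) summed to between 1305 and 1528 CPM, nearly all of it Lyz2, and to between 12.8 and 21.3 CPM without Lyz2. Those of neutrophils (5 of 7) summed to between 14.1 and 22.5 CPM. In bulk samples such as these, fewer cells of a type and less RNA per cell cannot be told apart.

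All 8 genes were detected, defined as 1 CPM or more in all 3 libraries, as were 77.7% of all genes of the tables. Their median level was 64.0 CPM against 3.86 CPM over all genes, and 12.3 RPKM against 1.49 RPKM. Together they held 834.8, 749.1 and 866.7 CPM in replicates 1, 2 and 3, a mean of 816.8 ± 60.8 CPM (SD, n = 3). The highest and the lowest of the 8 differed 47.7-fold per length. Counting error alone gave exact Clopper-Pearson 95% intervals with a half-width between 1.89% of the value, for Jak1 in replicate 3, and 16.3%, for Tyk2 in replicate 2. Reads carry no molecular identifiers, so these intervals cover counting error only.

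**Figure D1:**
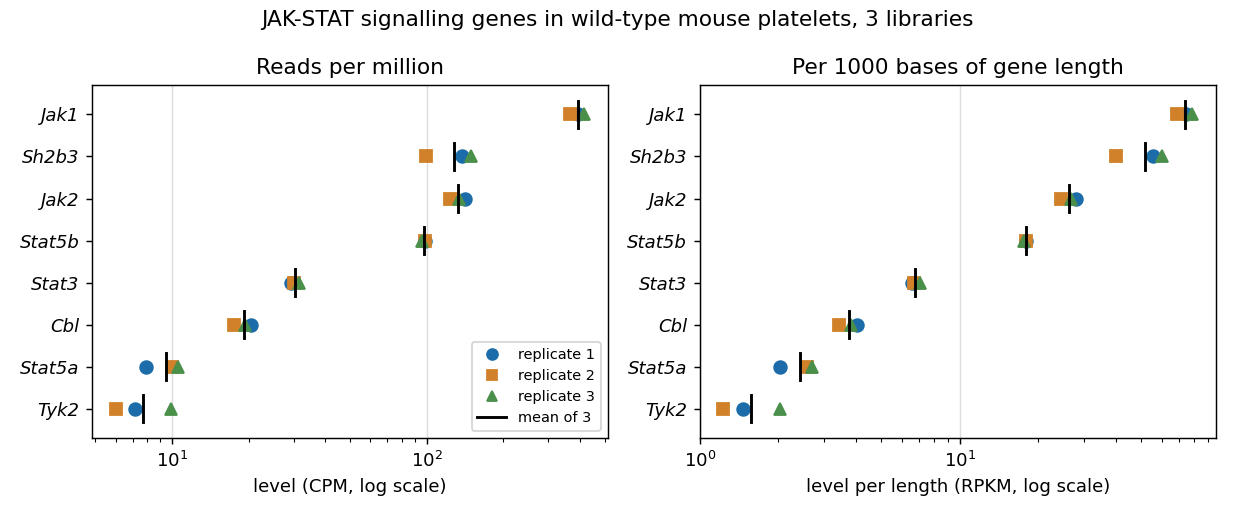
Levels of the 8 genes in each library, as CPM (left) and RPKM (right), both on log axes; points are the 3 libraries and black bars their means. Jak1 is highest on both scales, at a mean of 391.0 CPM and 73.8 RPKM, and the 3 points of Stat5b lie almost on each other with plain totals while those of Tyk2 and Sh2b3 are spread apart.

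Among the kinases, Jak1 was the most abundant and Tyk2 the least. Jak1 lies on the minus strand of chromosome 4 (101151974 to 101265282, mm10 coordinates from the RefSeq annotation of GRCm38.p6, as for all genes here). Its level was 392.9, 364.3 and 415.9 CPM in replicates 1, 2 and 3, a mean of 391.0 ± 25.8 CPM (SD, n = 3), above 97.1% of all genes. The libraries were close together, the highest being 1.14 times the lowest. Jak2, the kinase that the receptors for thrombopoietin and erythropoietin depend on, lies on chromosome 19 (29251803 to 29313095, plus strand). It was at 141.1, 123.6 and 134.5 CPM, a mean of 133.1 ± 8.84 CPM (SD, n = 3), above 93.6% of genes, and again the highest library was 1.14 times the lowest.

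Tyk2, which works beside JAK1 or JAK2 at interferon and interleukin receptors, lies on the minus strand of chromosome 9 (21104068 to 21131393). Its counts of 193, 151 and 259 gave 7.16, 5.99 and 9.92 CPM, a mean of 7.69 ± 2.02 CPM (SD, n = 3). Replicate 3 stood above the other two, at 1.51 times their mean, and the coefficient of variation of 26.2% was the highest of the 8 genes. In GENCODE, 554 exon bases of Tyk2 overlap the antisense gene 1700084C06Rik on the opposite strand. The strand setting of the counting is not given in the sources used here, so reads of the pair may not have been told apart.

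Within every library, Jak1 stood above Jak2 and Jak2 above Tyk2 per length. The log2 ratio of Jak1 to Jak2 was 1.40, 1.48 and 1.55 in replicates 1, 2 and 3, a mean of 1.48 ± 0.08 (SD, n = 3), or 2.79-fold. Jak2 exceeded Tyk2 by 4.26, 4.32 and 3.72 on the log2 scale, a mean of 4.10 ± 0.33 (SD, n = 3), or 17.1-fold. Both gaps were larger than their spread between libraries. With 3 libraries an exact two-sided sign-flip test cannot go below p = 0.25, so ratios are given without a test. Jak3, the kinase of the receptors that share the common gamma chain, was at 4.67, 6.07 and 8.92 CPM. Of the summed RPKM of the 4 kinases, Jak1 made up 71.3% ± 0.528, Jak2 25.6% ± 1.17, Jak3 1.55% ± 0.453 and Tyk2 1.51% ± 0.306 (SD, n = 3). The shares of Jak3 and Tyk2 overlapped between libraries.

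Of the 3 STAT factors of this chain, Stat5b was the most abundant and Stat5a, its near copy, was several times lower. The 3 genes Stat5b, Stat5a and Stat3 lie side by side on chromosome 11, within 158864 bases. Stat5b spans 100780731 to 100859004 on the minus strand and Stat5a 100859351 to 100885169 on the plus strand. Stat3 follows 1637 bases after the end of Stat5a, at 100886806 to 100939594 on the minus strand. Stat5b and Stat5a point away from each other, with 347 bases between the RefSeq gene ends and 8627 bases between their outermost starts in GENCODE.

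Because reads were assigned to 2 such similar genes, the sequence they share bears on their levels. The coding sequences of Stat5a (2391 bases) and Stat5b (2358 bases) were identical at 2080 of 2291 aligned bases (90.8%), and they share an unbroken run of 324 bases, at coding positions 571 to 894 in both. By comparison, Stat3 and Stat5a were 58.8% identical with a longest shared run of 14 bases, and the 3 kinase pairs were between 59.97% and 62.2% identical. The end of the shared run is shown for both genes, from GENCODE M21 transcripts (GRCm38), at coding positions 835 to 924 counted from the A of the start codon. Capitals mark the last 60 of the shared bases, and the one difference in the window is C895T, with the base of Stat5a first.
Stat5a: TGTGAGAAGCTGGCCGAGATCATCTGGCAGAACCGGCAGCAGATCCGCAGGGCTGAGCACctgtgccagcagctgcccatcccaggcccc
Stat5b: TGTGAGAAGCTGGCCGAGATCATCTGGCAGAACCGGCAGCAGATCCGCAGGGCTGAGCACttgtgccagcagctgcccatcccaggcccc
A read that falls within the capitals cannot be assigned to one gene by its letters. Of all windows of 50 bases in the transcript, 17.7% of those of Stat5a occur in another gene (Stat5b or Stat3), and 11.8% of those of Stat5b occur in Stat5a. How the counting treated such reads is not given in the sources used here, so the levels of this pair are uncertain. The shared part of Stat5b amounts to 11.5 CPM at its mean level, more than the whole mean level of Stat5a (9.48 CPM), so the placing of shared reads could move Stat5a and its ratio to Stat5b by more than these shares.

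Stat5b was at 98.4, 98.4 and 96.2 CPM in replicates 1, 2 and 3, a mean of 97.6 ± 1.28 CPM (SD, n = 3), above 91.9% of genes. With plain totals its libraries lay closest of the 8 genes, the highest at 1.02 times the lowest, and its counts had a chi-square of 0.439 per degree of freedom. With TMM scaling it was at 103.1, 102.8 and 87.9 CPM, the highest at 1.17 times the lowest, against 1.08 times for Stat3 and for Jak1, so its steadiness depended on the scaling. Stat5a was at 7.90, 10.004 and 10.53 CPM, a mean of 9.48 ± 1.39 CPM (SD, n = 3), with replicate 1 below the other two. Stat5a lay below Stat5b in every library, by a log2 ratio per length of -3.15, -2.81 and -2.71, a mean of -2.89 ± 0.23 (SD, n = 3), or 7.42-fold. Stat5b made up 88.1% ± 1.65 (SD, n = 3) of the RPKM of the pair.

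Stat3, the factor of interleukin-6 and interleukin-10 signalling, was at 29.3, 30.01 and 31.6 CPM, a mean of 30.3 ± 1.20 CPM (SD, n = 3), above 83.9% of genes. Its 3 libraries lay close together with plain totals, with a coefficient of variation of 3.96% and the chi-square of their counts at 1.26 per degree of freedom. Per length, Stat3 stood between the STAT5 genes: 2.79-fold above Stat5a (log2 ratio 1.48 ± 0.18, SD, n = 3) and 2.66-fold below Stat5b (log2 ratio -1.41 ± 0.08, SD, n = 3). In GENCODE, 72 exon bases of Stat3 and Stat5a overlap on opposite strands.

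Stat5b, Stat3 and Stat5a were also set beside Stat2, a factor of interferon signalling, Stat4 of interleukin-12 and Stat6 of interleukin-4. All 6 were detected, as were 77.7% of all genes of the tables. Of the summed RPKM of these 6 genes, Stat5b made up 51.7% ± 3.84, Stat3 19.4% ± 0.468, Stat6 16.8% ± 2.97, Stat5a 6.97% ± 0.690, Stat2 2.61% ± 0.528 and Stat4 2.57% ± 0.626 (SD, n = 3). The shares of Stat3 and Stat6 overlapped between libraries, as did those of Stat2 and Stat4. Stat6 was at 17.4, 21.7 and 28.1 CPM in replicates 1, 2 and 3, highest in replicate 3. Stat2 was at 3.60, 3.26 and 5.21 CPM and Stat4 at 2.41, 2.06 and 3.60 CPM, again highest in replicate 3.

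**Figure D2:**
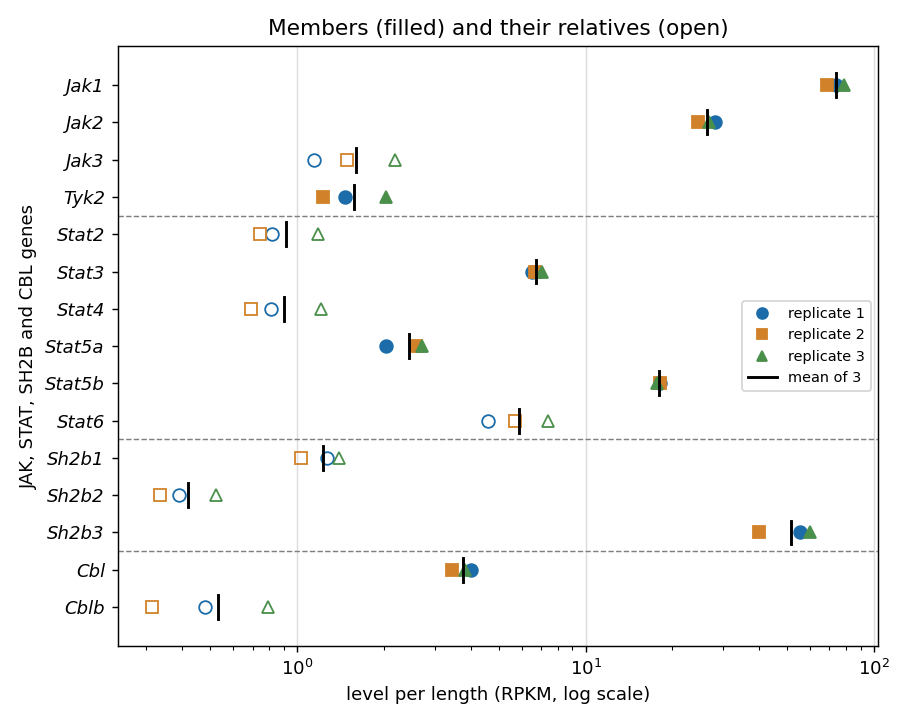
Level per length (RPKM, log axis) of 15 JAK, STAT, SH2B and CBL genes in each of 3 libraries, with the 8 genes of the signalling chain filled and their relatives open; black bars are means. One or 2 genes dominate each family: Jak1 with 71.3% and Jak2 with 25.6% of the JAK signal, Stat5b with 51.7% of the signal of the 6 STAT genes drawn, Sh2b3 with 96.9% of the SH2B signal and Cbl with 87.9% of the Cbl and Cblb signal.

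The inhibitor Sh2b3 was, per length, the second most abundant of the 8 genes. It lies on the minus strand of chromosome 5 (121815481 to 121837645). Its counts of 3712, 2501 and 3881 gave 137.6, 99.3 and 148.6 CPM in replicates 1, 2 and 3, a mean of 128.5 ± 25.9 CPM (SD, n = 3), above 93.3% of genes. Replicate 2 stood below the other two libraries, which were close to each other, and the highest library was 1.497 times the lowest. Its relatives, the adaptors Sh2b1 and Sh2b2, were far lower, at 4.34, 3.53 and 4.79 CPM and at 1.11, 0.953 and 1.49 CPM. Sh2b3 exceeded Sh2b1 by a log2 ratio per length of 5.38 ± 0.09 (SD, n = 3), or 41.7-fold, and made up 96.9% ± 0.200 (SD, n = 3) of the RPKM of the 3 genes.

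How Sh2b3 ranked against its target Jak2 depended on the gene length used. By reads alone the pair were level, with 1.05 times as many for Jak2 and a different gene ahead in different libraries. Per base of the deposited lengths (2482 for Sh2b3 and 5030 for Jak2) Sh2b3 was ahead in every library, by 0.95 ± 0.23 on the log2 scale (SD, n = 3), or 1.93-fold. The coding transcript of Sh2b3 in GENCODE is longer, at 4195 bases, and with transcript lengths the gap was 0.19 ± 0.23 (SD, n = 3), smaller than its spread.

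Cbl lies on the minus strand of chromosome 9 (44142976 to 44234259) and was at 20.4, 17.4 and 19.4 CPM, a mean of 19.1 ± 1.53 CPM (SD, n = 3), above 78.8% of genes. Its libraries were close together, the highest being 1.17 times the lowest. Its paralog Cblb, also a ubiquitin ligase, was at 3.04, 1.98 and 5.02 CPM, with replicate 3 the highest. Cbl exceeded Cblb in every library, by a log2 ratio per length of 3.06, 3.45 and 2.27, a mean of 2.93 ± 0.60 (SD, n = 3), or 7.60-fold. Cblc was not analysed here. The deposited length of Cbl, 5083 bases, is less than that of its GENCODE coding transcript, 11372 bases, so its level per length is uncertain: per transcript length Cbl stood below Stat5a, by -0.64 ± 0.31 on the log2 scale (SD, n = 3), instead of above it.

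Among the genes of other proteins that act with CBL, Sla and Ubash3b were the highest per length, at means of 61.9 and 29.5 RPKM. Ubash3b, a phosphatase that binds CBL and is also called STS-1, was at 103.1, 86.1 and 97.5 CPM, while its relative Ubash3a was at 2.89, 2.98 and 3.71 CPM. Sla, an adaptor that recruits CBL to receptors in lymphocytes, was at 169.8, 205.1 and 161.1 CPM, highest in replicate 2, and its relative Sla2 at 1.22, 0.993 and 1.38 CPM. Cbll1, a CBL-like ubiquitin ligase, was at 2.30, 2.34 and 3.71 CPM. Of the 10 SH2B and CBL relatives in the tables, Sh2b3 and Cbl included, 8 were detected, against 77.7% of all genes. The median of the 10 was 1.16 RPKM against 1.49 RPKM over all genes.

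Placed in order per length, the 8 genes ran from Jak1 (73.8 ± 4.87 RPKM) over Sh2b3 (51.8 ± 10.4), Jak2 (26.5 ± 1.76), Stat5b (17.9 ± 0.236), Stat3 (6.76 ± 0.268), Cbl (3.76 ± 0.300) and Stat5a (2.44 ± 0.359) to Tyk2 (1.58 ± 0.414 RPKM), each with its SD over 3 libraries. By RPKM Jak1 stood above 94.2% of all genes, Sh2b3 92.6%, Jak2 88.9%, Stat5b 86.2%, Stat3 75.8%, Cbl 67.8%, Stat5a 60.3% and Tyk2 51.2%. All 7 steps between neighbours went the same way in all 3 libraries and were larger than their SD. With the deposited lengths the widest step was from Stat5b to Stat3, 2.66-fold, and the narrowest from Jak1 to Sh2b3, 1.44-fold. With transcript lengths the step from Jak1 to Sh2b3 was 2.64-fold and that from Stat5b to Stat3 2.79-fold. Stat3 was then 4.005-fold above Cbl, but with Stat5a between them. Jak2 and Stat5b, kinase and substrate, were 1.47-fold apart (log2 ratio 0.56 ± 0.10, SD, n = 3). By reads alone, the steps between Sh2b3 and Jak2 and between Stat5a and Tyk2 (0.32 ± 0.36 on the log2 scale) were not larger than their spread. With transcript lengths the same was true of Sh2b3 and Jak2, and Cbl and Stat5a changed places.

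None of the 8 genes passed a test for unusual spread between the libraries. The spread of each gene, as its quasi-likelihood dispersion in edgeR, was set against the trend over the 8289 genes that averaged at least 1 CPM. At an adjusted p under 0.05, 0.229% of these genes (19) were called, with 0 of the 8 among them, and 0 of the 8 had an unadjusted p under 0.05, against 356 genes in all. DESeq2 called 49 genes dispersion outliers, with none of the 8 among them. Sh2b3 came nearest, with 3.80 times the dispersion of the trend (adjusted p = 0.982 in edgeR's test), a ratio above that of 94.7% of genes. This value rested on replicate 2 and on the scaling: it was 0.150 without replicate 2, 1.78 without replicate 1, 13.2 without replicate 3 and 10.2 with plain totals. Tyk2 was at 1.69 times the trend (adjusted p = 0.982), Jak2 at 1.18, Stat5b at 1.02, Cbl at 0.919, Stat5a at 0.780, Jak1 at 0.275 and Stat3 at 0.175 times. A p that misses the threshold does not show that the libraries were alike, and with 3 libraries there were only 2 residual degrees of freedom. On simulated counts the test called 0 of 50 genes changed 2-fold in 1 library, and 26 of 50 changed 4-fold. With TMM scaling the largest ratio of highest to lowest library among the 8 was 1.45, for Tyk2. Missing the threshold therefore says little about a spread of this size.

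**Figure D3:**
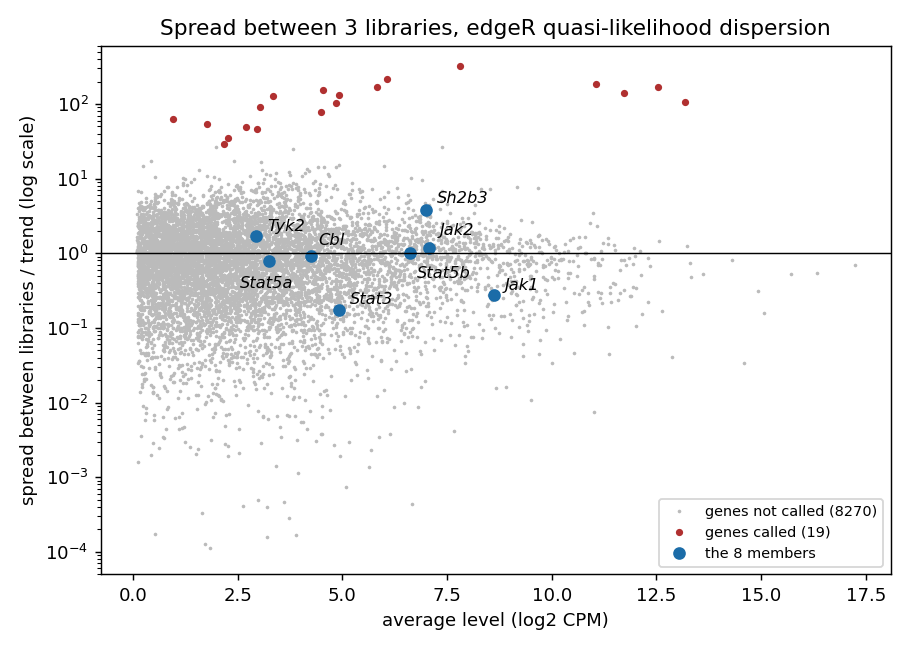
Spread of each gene between the 3 libraries, as its quasi-likelihood dispersion divided by the trend (log axis), against its average level in log2 CPM, for 8289 genes. The 19 genes called lie at the top in red; the 8 genes of the signalling chain, in blue, lie between 0.175 (Stat3) and 3.80 (Sh2b3) times the trend.

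Which library was highest differed from gene to gene. With plain totals, 5 of the 8 (Jak1, Tyk2, Stat3, Stat5a and Sh2b3) were highest in replicate 3, as were 68.7% of all genes. In replicate 2, 5 of the 8 (Jak1, Jak2, Tyk2, Sh2b3 and Cbl) were lowest, as were 4252 of all 9822 genes. With TMM scaling 1 of the 8 was highest in replicate 3, against 45.3% of genes, so the order of the libraries for these genes depended on the scaling. Against the mean of replicates 1 and 2, the level in replicate 3 was 1.08 times as high for the median of the 8 genes and 1.20 times for the median of all genes. Among the 8 this ratio was highest for Tyk2, 1.51, and lowest for Stat5b, 0.977.

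By this ratio Jak3, Stat2, Stat4, Stat6 and Cblb were higher in replicate 3 than the median gene. It was 1.66 for Jak3, 1.52 for Stat2, 1.61 for Stat4, 1.44 for Stat6 and 2.00 for Cblb. It was 2.09 for the phosphatase Ptpn6 and 1.46 for the leukocyte phosphatase Ptprc, which were picked out after their values were seen. The ratio was lower for some other phosphatases and CBL partners: 1.21 for Ptpn1, 0.997 for Ptprj, 0.986 for Ptpn11, 1.03 for Ubash3b and 0.859 for Sla. Of the relatives of Sh2b3, Sh2b2 gave 1.45 and Sh2b1 1.22. For Ptpn2, Dusp3, Cbll1, Ubash3a and Sla2 it was not worked out, but all were highest in replicate 3, Ptpn2 at 2.71, 3.45 and 4.14 CPM. The summed markers of B cells gave 1.63 and those of T cells 1.53, those of neutrophils 1.37 and those of platelets 1.05. Those of monocytes gave 0.976, a sum that is nearly all Lyz2, and 1.32 without it. The part of leukocyte RNA in the levels of Tyk2 and these relatives was not tested. Replicate 1, with the most red cell marker RNA, was highest for Jak2 and Cbl among the 8 genes with plain totals, and for 1518 of all 9822 genes. Replicate 1 was highest for 5 of the 8 with TMM scaling and for 4 with DESeq2 size factors. The share over all genes was not counted there, so these counts cannot be read as particular to the 8. The part of red cell RNA in the levels of replicate 1 was not tested.

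**Figure D4:**
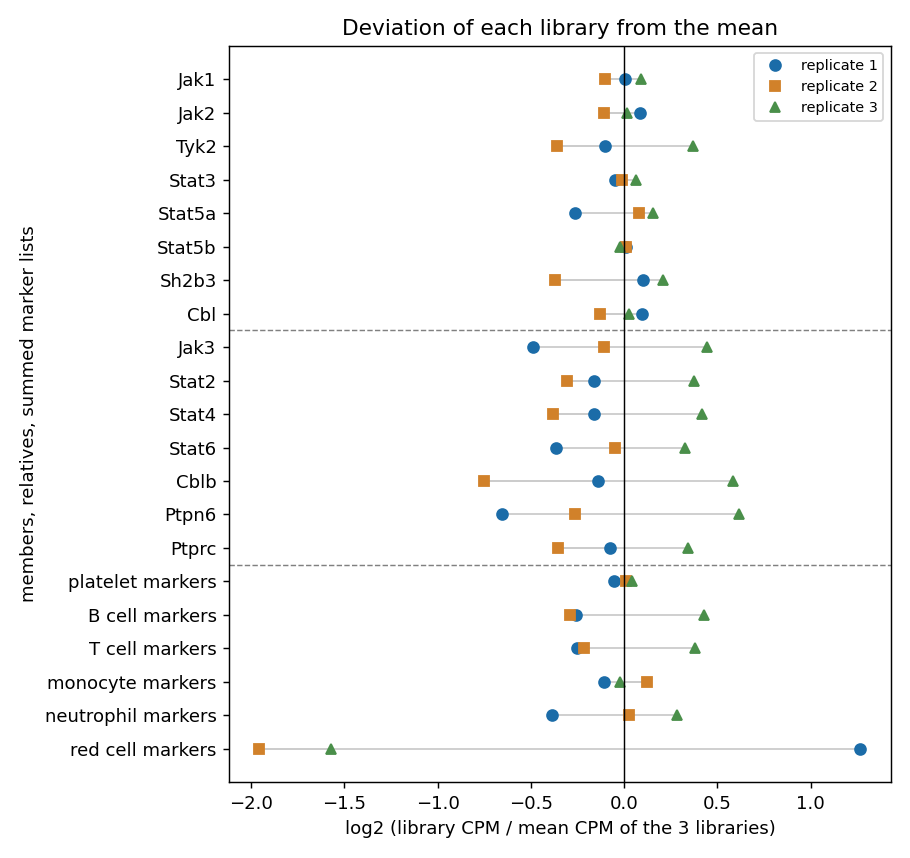
Deviation of each library from the mean of the 3, as log2 of its CPM over the mean CPM, for the 8 genes (top), relatives and phosphatases (middle) and summed cell type markers (bottom). The farthest library lies at 0.06 for Stat3 and at -0.02 for Stat5b with these plain totals. Jak1, Tyk2, Stat3, Stat5a, Sh2b3 and all relatives and phosphatases drawn lie highest in replicate 3, as do 68.7% of all genes. So do the summed B cell, T cell, neutrophil and platelet markers, but not those of monocytes and red cells.

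The phosphatases and the ERK arm downstream of the receptor were listed as well. All 7 tyrosine phosphatases listed were detected, as were 77.7% of all genes of the tables. Their median was 17.6 RPKM against 1.49 RPKM over all genes. Ptpn11, which encodes SHP-2 and passes the signal on to ERK, was at 739.6, 710.5 and 714.6 CPM. Ptpn1, which encodes the JAK2 phosphatase PTP1B, was at 288.9, 252.3 and 327.1 CPM, and the receptor phosphatase Ptprj, also called CD148, at 334.0, 240.3 and 286.4 CPM. All 18 adaptors and kinases of the ERK arm were detected, against the same 77.7% of all genes, at a median of 4.37 RPKM. The highest per length was Mapk3, which encodes ERK1, at 919.6, 945.2 and 957.1 CPM, followed by the adaptor Dok1 at 34.6, 38.4 and 38.5 CPM and the ERK kinase kinase gene Map2k2 at 41.5, 45.6 and 49.9 CPM.

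Of 8 genes listed for the SOCS family of feedback inhibitors, 4 were among the genes of the tables. Of these, 2 were detected, against 77.7% of all genes of the tables. The median of the 4 was 0.386 RPKM. The highest was Socs5 at a mean of 2.89 CPM, then Socs4 at 0.955 CPM and Socs7 at 2.31 CPM by their order per length. Cish and Socs1 to Socs3, the members best known as STAT5 and STAT3 targets, were not analysed here. All 4 PIAS genes, which encode STAT-binding SUMO ligases, were detected, against the same 77.7% of all genes, at a median of 0.974 RPKM. Pias3 was the highest per length at 26.0, 24.2 and 24.9 CPM, while Pias1 and Pias4 had means of 3.79 and 1.61 CPM.

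Of 18 genes listed as STAT targets in other cells, 10 were in the tables. Of these, 9 were detected, against 77.7% of all genes of the tables. The median of the 10 was 1.65 RPKM. The highest were Ccnd3, which encodes cyclin D3, at 342.8, 330.2 and 413.8 CPM, and Bcl2l1, the gene of the anti-apoptotic protein BCL-XL, at 227.4, 208.3 and 235.6 CPM. The survival gene Mcl1 followed at 17.2, 15.0 and 24.5 CPM. A level of RNA in one group says nothing about whether STAT factors act on these genes.

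The promoters of the 8 genes were compared in the RefSeq set for GRCm38.p6, in windows from 250 bases before to 50 after each start: 10 windows for the 8 genes, 2 of them each for Stat5a and Stat5b, against 32851 windows in all. The GATA motif (AGATAA or TGATAA, both strands) was in 0 of 10 windows and in 18.6% of all promoters, and the STAT motif (TTCNNNGAA) in 0 of 10 and in 8.30%. The ETS motif (CCGGAA) was in 1 window of Stat5b and that of Cbl, against 14.9% of all, and the CCAAT box (CCAAT) in those of Jak1, Tyk2 and Stat3, against 37.4%. No window held more than 1 kind of these motifs, though that of Tyk2 held 3 CCAAT matches and that of Stat3 held 2, and AGATAA and TGATAA differ only in their first letter. An absent match says only that these letters are not in the window. The CG-richest windows of the STAT5 neighbours are printed because the pair differed 7.42-fold in level: chr11:100850532-100850831 on the minus strand for Stat5b, with 50 CG pairs, and chr11:100860234-100860533 on the plus strand for Stat5a, with 27, against a median of 7 over all promoters. Capitals mark the ETS motif, read here on the opposite strand, and the Stat5a window holds none of the 4 motifs.
Stat5b: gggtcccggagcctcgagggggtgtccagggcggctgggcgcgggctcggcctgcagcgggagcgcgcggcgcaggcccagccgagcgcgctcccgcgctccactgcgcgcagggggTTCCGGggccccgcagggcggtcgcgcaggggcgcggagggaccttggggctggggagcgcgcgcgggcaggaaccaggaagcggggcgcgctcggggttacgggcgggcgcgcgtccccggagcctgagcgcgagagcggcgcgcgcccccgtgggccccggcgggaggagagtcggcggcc
Stat5a: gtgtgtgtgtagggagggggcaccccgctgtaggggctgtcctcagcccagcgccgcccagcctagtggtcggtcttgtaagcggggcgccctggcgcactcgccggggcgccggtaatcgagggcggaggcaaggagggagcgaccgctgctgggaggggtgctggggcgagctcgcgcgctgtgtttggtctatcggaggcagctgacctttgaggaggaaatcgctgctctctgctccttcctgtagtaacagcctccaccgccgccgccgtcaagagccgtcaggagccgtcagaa
The windows were 82.7% and 67.7% G or C. Among the other windows Jak2 held 44 CG pairs, Cbl 43 and Jak1 29, and Sh2b3 held 9. The window of Sh2b3, 121836055 to 121836354 on chromosome 5, lies inside the gene, which begins at 121837645 on the minus strand. The sequence around that outermost start was not covered, so the CG pairs and absent motifs of Sh2b3 do not describe it.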

How the data were processed

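Platelet RNA of 3 libraries was sequenced with the Illumina TruSeq RNA v2 kit, per the labels' protocols. Each deposited table lists, per the file headers, an Entrez number, a gene length and a count for every gene; the counts are whole numbers that had not been normalized. The submitters' processing notes name CASAVA 1.8.2, Subread, featureCounts and edgeR 3.11.5 and build mm10, with no order or settings. Which annotation, strand setting and gene filter they used, and how reads that fit several genes were handled, is not given in the sources used here. The 8 genes, the gene lists and the tests were chosen with earlier results of these data known.

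Symbols were matched to Entrez numbers in RefSeq's gene table of GRCm38.p6, the assembly of mm10, which named 9636 of the 9822 genes. CPM used the plain total of counts, and RPKM the deposited gene length. Shared sequence and transcript lengths came from GENCODE M21, in the transcript with the longest coding sequence of each gene. The spread test used edgeR 4.0.16 (limma 3.58.1, R 4.3.3): an intercept, TMM scaling, genes that averaged at least 1 CPM, and an upper-tail F test of each quasi-likelihood dispersion against the trend, with Benjamini-Hochberg adjustment over all genes tested. The code was checked on simulated counts. DESeq2 1.42.0 served as an alternative. Other steps used Python 3.11.15, NumPy 2.4.6, pandas 2.3.3, SciPy 1.17.1, Biopython 1.88 and matplotlib 3.10.9. Ratios of 2 genes are described in 11 pairs, and neighbours are said to differ where all 3 libraries have the same sign and the mean exceeds its SD. Counts differed between every pair of libraries beyond sampling noise (chi-square per degree of freedom 17.9 to 103.6), so none was counted as a second deposit of another; this does not show separate mice.

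Genes named beside the 8 were JAK, STAT, SH2B and CBL relatives of the tables, the 3 highest per length of each pathway list, and the gene nearest in level to each of the 8. A few genes taken by this rule are not reported here.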

Additional observations from a re-analysis of the deposited data

How the results depend on the processing

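Each result was recomputed with other scalings, filters, lengths and with each library left out; the 2 alternative lengths were chosen after seeing the data. All 8 genes stayed detected at minimums of 0.5 and 5 CPM and of 1 RPKM. Without the 10 highest genes in the total, the summed level of the 8 was 1437 CPM instead of 816.8, a scaling that moved the median gene by 0.82 on the log2 scale. By reads alone the log2 ratios were -3.38 for Stat5a to Stat5b, 1.69 for Stat3 to Stat5a, -1.69 for Stat3 to Stat5b, 0.44 for Jak2 to Stat5b, 4.92 for Sh2b3 to Sh2b1 and 2.73 for Sh2b3 to Cbl. The ratio of Jak2 to Sh2b3 reversed, to 0.070. With transcript lengths it was -0.19, with 1.59 for Jak1 to Jak2 and 4.17 for Sh2b3 to Cbl. With the shared windows of 50 bases taken out of the length, Stat3 to Stat5a was 1.20, Stat3 to Stat5b -1.59 and Jak2 to Stat5b 0.38. Of the 7 steps in the order, 5 held by reads alone and 5 with transcript lengths, and 7 with each library left out. Genes called for their spread numbered 19, and 11 with plain totals, 11 with genes averaging at least 5 CPM, 11 without the red cell markers, 0 with a robust prior in edgeR (396 at an unadjusted p under 0.05) and 49 as dispersion outliers of DESeq2. With one library left out they numbered 1 to 32: 1 without replicate 1, 29 without replicate 2 and 32 without replicate 3. None of the 8 genes was called under these settings, with adjusted p between 0.476 and 0.9997 over 10 settings of edgeR. With TMM scaling, all 3 libraries and genes averaging at least 1 CPM, 0 of the 8 passed at an unadjusted p under 0.05. Sh2b3 alone passed with plain totals and, still with TMM scaling, with genes averaging at least 5 CPM and without replicate 3. The causes of these shifts were not tested, beyond the lengths themselves. No paired analysis was possible because there is 1 group. Depth limits Tyk2 and Stat5a most, whose counts lie between 151 and 275.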

Other observations

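Cytokines and cytokine receptors that use the same kinases were also listed. Of 19 ligand genes listed, 4 were in the tables and 3 were detected, against 77.7% of all genes of the tables. Il15, which encodes a cytokine that signals through JAK1 and JAK3, was at 21.5, 26.8 and 22.9 CPM in replicates 1, 2 and 3. Il7, the lymphocyte survival factor, was at 8.49, 9.81 and 9.69 CPM and Il4 at 3.78, 3.93 and 3.64 CPM. Of 41 receptor genes, 25 were in the tables and 15 were detected, against the same 77.7% of all genes. The median of the 25 was 0.502 RPKM against 1.49 RPKM over all genes. Il21r, the interleukin-21 receptor, was at 62.0, 63.5 and 64.8 CPM, and Epor, the erythropoietin receptor, at 11.5, 10.8 and 12.1 CPM.

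Many genes lie at the level of each of the 8, so likeness in level sets none apart. By root mean square difference of log2 RPKM over the 3 libraries, among 8289 genes, the nearest gene was Bcas3 to Jak1 (0.052), Atp2c1 to Jak2 (0.026), Satb1 to Tyk2 (0.021) and Bicd2 to Sh2b3 (0.085). It was 4933434E20Rik to Stat3 (0.022), Ttc1 to Stat5a (0.038), H2ac13 to Stat5b (0.024) and Sft2d1 to Cbl (0.0075). The number of genes within 0.25 ran from 41 for Sh2b3 to 320 for Stat3.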
